A study of Mus musculus with 7 samples.

Results

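The 8 genes of the SOCS family, Socs1 to Socs7 and Cish, encode intracellular suppressors of cytokine signaling. They were chosen by name and followed through the nascent RNA of GFI1+ IAHC cells, the CD31+cKIT+GFI1+ cells of the intra-aortic hematopoietic clusters. All 8 were found among the 55487 genes of the raw count table. The cells came from the AGM (aorta, gonad and mesonephros region) of E11.5 mouse embryos of strain CD1/Gf1+, whose Gfi1:tomato reporter served for the sort, and by the study's methods each sample was drawn from a pool of embryos. Every group was first kept overnight in compound E (compE), which blocks γ-secretase and thereby the release of the active part of Notch receptors, and was then washed and split into sets of 300 to 400 cells. These sets were cultured for 4 h in methylcellulose with growth factors and EU, a uridine analog that marks newly made RNA, at 0.3 mM. The washout group received DMSO (3 libraries: washout 1, 2 and 3). The compE group received compE again (2 libraries: compE 1 and 2). The Fc-JAG1 group received recombinant Fc-JAG1, a soluble form of the Notch ligand JAG1 (2 libraries: Fc-JAG1 1 and 3). The labels give compE as 10 mM and Fc-JAG1 as 4 mg/ml, and the study's methods give the same numbers in μM and μg/ml. Library numbers stand for the biological samples (embryos in the wording of the labels). Sample 1 had a library of every group, sample 3 had no compE library and sample 2 had no Fc-JAG1 library. The authors state that they left the latter library out because it gave too few unique reads.

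Cytokine receptors signal through JAK kinases, which phosphorylate STAT transcription factors. STATs in turn induce several SOCS genes, and the SOCS proteins then bind the receptors or the kinases and shut the signal down, a classical negative feedback loop. Each SOCS protein has a central SH2 domain, which holds phosphorylated tyrosines, and a SOCS box at its end, which recruits elongins B and C and a cullin so that the bound protein can be ubiquitinated. In hematopoietic stem and progenitor cells the pathway carries the signals of thrombopoietin, interleukins, erythropoietin and colony stimulating factors, and some family members also act on the receptor tyrosine kinases KIT and FLT3.

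The feedback rests on STAT sites near the start of the STAT-induced members, so the stretches that hold the STAT consensus TTCNNNGAA are shown first. A promoter window of 300 bases was given in RefSeq (GRCm38.p6) for 4 of the 8 genes: Cish, Socs3, Socs4 and Socs1. The consensus reads the same on both strands and was searched as these letters. It is in capitals in the 2 stretches below, the first from chr9:107296654-107296683 on the plus strand and the second from chr11:117969502-117969530 on the minus strand.
Cish: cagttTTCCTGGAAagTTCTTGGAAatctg
Socs3: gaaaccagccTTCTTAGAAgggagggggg
The Cish stretch held 2 matches, which do not overlap, between bases 1 and 20 counted from the RefSeq start, and it lies in an untranslated exon of 1 of the 5 annotated Cish transcripts. The Socs3 stretch held 1 match at −154 to −146 from the start and lies in no exon of the 3 annotated Socs3 transcripts. The windows of Socs4 and Socs1 held no match to these letters. Of 32851 promoter windows of the same length, 8.30% held at least 1 match and 0.457% held 2 or more. The matches describe these sequences and do not show that a STAT binds there.

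Counts assigned to genes ran from 21652927 to 33974693 per library. The libraries fell apart by how many genes they held. In washout 2, compE 2 and Fc-JAG1 1, 5.85% to 9.54% of the 10311 tested genes had fewer than 10 counts, against 28.9% to 43.8% in washout 1, washout 3, compE 1 and Fc-JAG1 3. The first 3, one of each group, are called the gene-rich libraries, a split made from the data and not by the labels. Of 8 markers of the sorted cells, Kit, Pecam1, Runx1 and Cd34 had at least 10 counts in every library, whereas Gfi1 had 2477 in washout 3, 2504 in Fc-JAG1 1, 12 in washout 2 and 0 in each of the other 4. Cdh5 had 139 counts in washout 1 and 0 to 3 in the other libraries, Ptprc had 3 in washout 3, and Itga2b had 8 in washout 1. Pecam1 was close to the limit in washout 1 and Fc-JAG1 3, with 18 and 11 counts against 1186 to 6314 in the other libraries. Of 8 macrophage markers, 4 to 7 had at least 10 counts in a washout library, 2 to 5 with compE and 3 to 6 with Fc-JAG1. The summed level of the list was 421 to 522 TMM-normalized CPM (counts scaled to library size) in the washout, 103 to 356 with compE and 151 to 507 with Fc-JAG1. Erythroid markers summed to 25.1 to 363 CPM in the washout, 25.7 to 132 with compE and 92.4 to 118 with Fc-JAG1, with Alas2 at 0 in all libraries. Markers of mesenchyme summed to at most 17.7 CPM and those of neural cells to at most 8.44 CPM in any library. In such bulk samples, fewer cells that make an RNA and less of it per cell cannot be told apart.

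Which SOCS genes were seen at all depended on the library. All 8 had at least 10 counts in washout 2, compE 2 and Fc-JAG1 1. In washout 1, washout 3 and compE 1 the number was 4 of 8, and in Fc-JAG1 3 it was 5 of 8. Genes at large showed the same split. Of 16701 genes with at least 10 counts in any library, 26.0% to 30.5% fell under 10 in the gene-rich libraries. In the others 51.5% to 62.5% did. Over the 8 genes and 7 libraries, 15 of 56 values were under 10 counts and 9 were 0. A count of 0 allows a level of up to 3 counts, which is 0.0774 to 0.174 CPM depending on the library. These libraries carry no molecular identifiers, so this limit covers counting error only. The same gene could be absent from one library and abundant in another library of one group: Socs4 had 0 counts in compE 1 and 2006 in compE 2, and Socs1 had 0 counts in Fc-JAG1 3 and 1411 in Fc-JAG1 1.

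**Figure D1:**
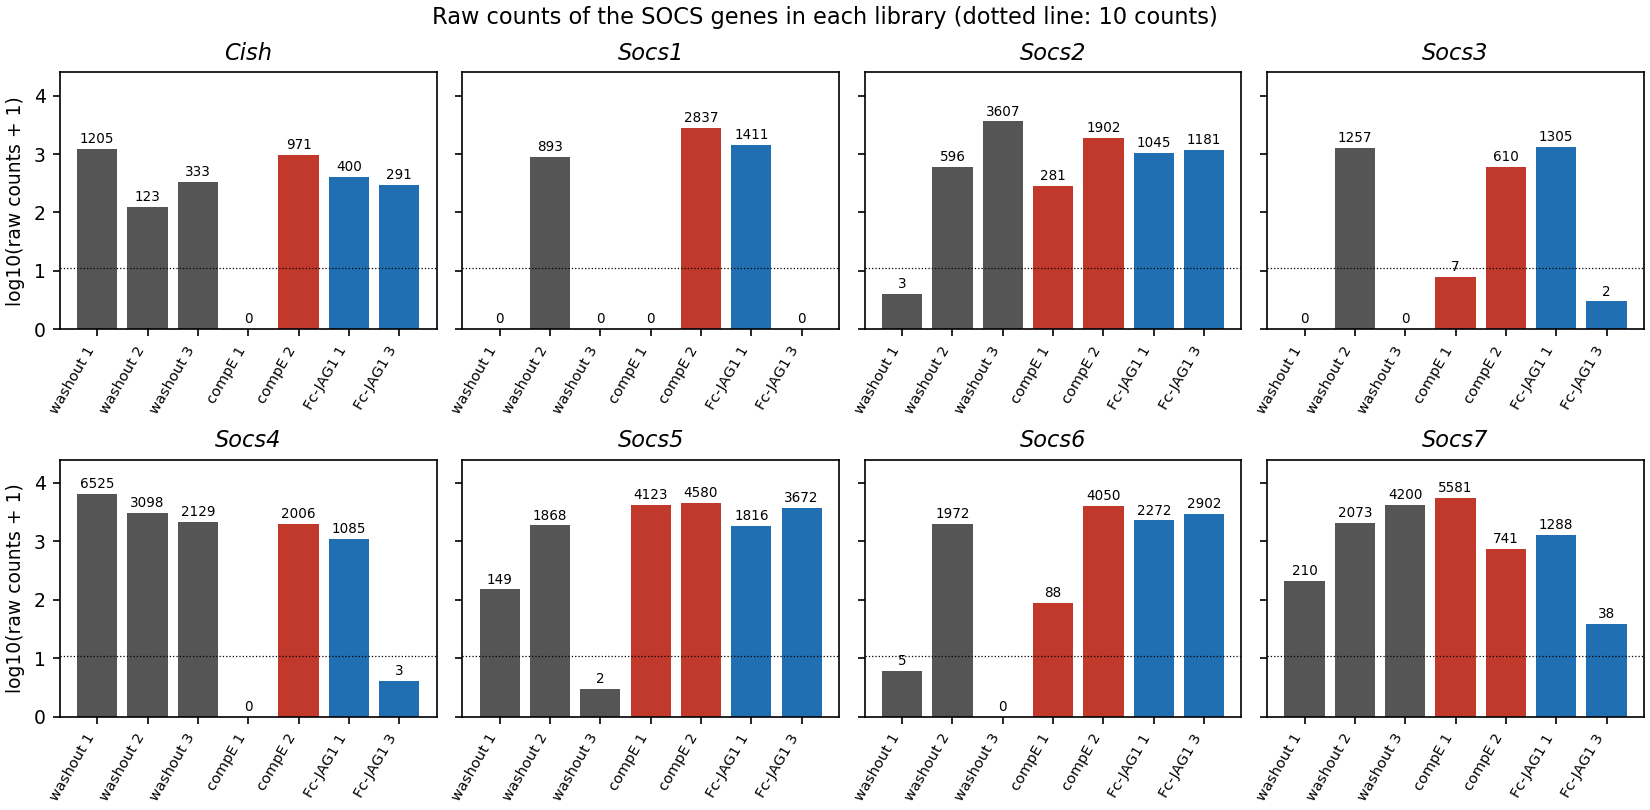
Raw counts of each SOCS gene (one panel per gene) in the 7 libraries, as bars of log10(counts + 1) with the count printed above each bar; washout is grey, compE red and Fc-JAG1 blue, and the dotted line marks 10 counts. Socs1 and Socs3 stood above the line in washout 2, compE 2 and Fc-JAG1 1 alone, while Socs7 stood above it in all 7 libraries.

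The summed level of the 8 genes varied much less than its parts. A sum of genes that do not rise together does so in any case, so this is no trait of the family. The sum was 470, 329 and 366 CPM in washout 1, 2 and 3, 399 and 457 CPM in compE 1 and 2, and 292 and 343 CPM in Fc-JAG1 1 and 3. The washout range took in both compE values and overlapped the Fc-JAG1 values, and the sums of gene-rich and other libraries overlapped too. The member with the highest CPM, not divided by length, differed between libraries. Socs4 led in washout 1 with 379 CPM and Socs7 in washout 3 and compE 1 with 150 and 221 CPM. Socs5 led in compE 2 and Fc-JAG1 3 with 118 and 156 CPM, Socs6 in Fc-JAG1 1 with 62.4 CPM, and Socs4 again in washout 2 with 85.9 CPM. Divided by kb of exon, Socs1 led in compE 2, with 25.2 CPM per kb against 18.4 for Socs5. It also led in Fc-JAG1 1, with 13.3 against 5.50 for Socs6.

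**Figure D2:**
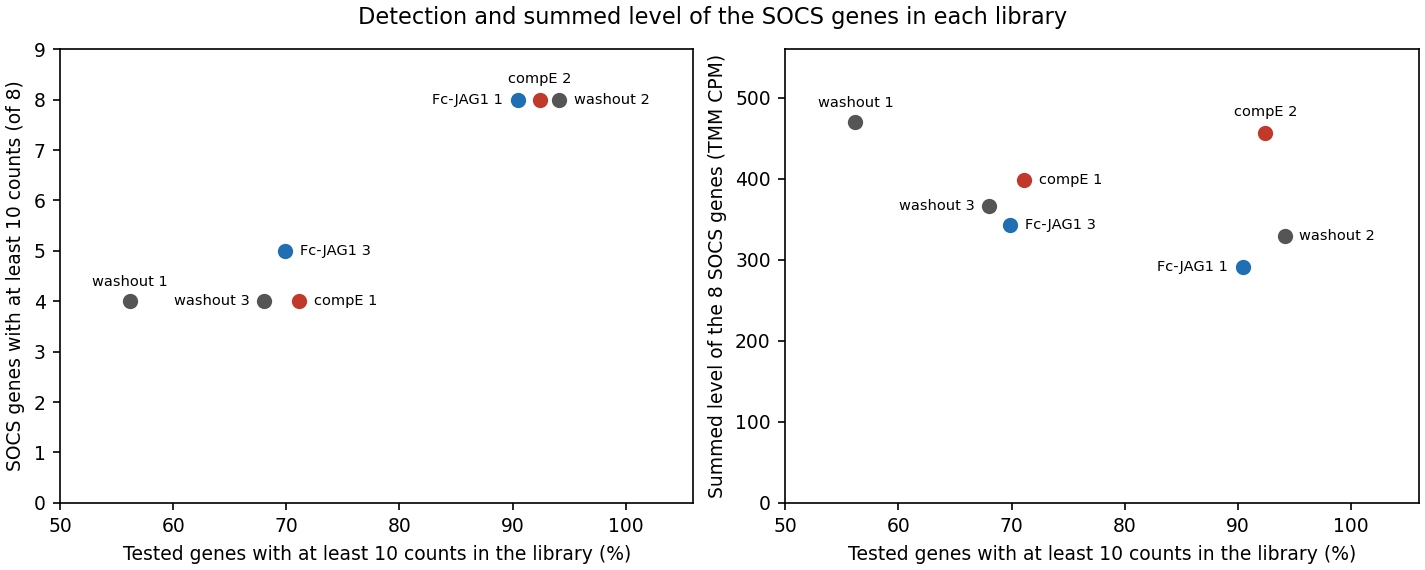
The number of SOCS genes with at least 10 counts (left) and the summed level of the 8 genes in CPM (right), each against the percentage of the 10311 tested genes with at least 10 counts in that library, one point per library coloured by group (washout grey, compE red, Fc-JAG1 blue). The 3 gene-rich libraries held all 8 genes and the other 4 held 4 or 5, while the sums, from 292 to 470 CPM, showed no such step.

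Levels of different genes were compared as CPM per kb of exon. Socs4 had the highest mean, 12.9 ± 19.2 CPM per kb (SD, n = 7), followed by Socs5 (12.2 ± 10.5) and Socs7 (9.75 ± 11.4). Socs1 (6.72 ± 9.73), Socs6 (4.38 ± 4.49), Socs3 (4.29 ± 5.77), Socs2 (4.26 ± 4.52) and Cish (2.97 ± 3.71) came next, with the same unit and n. No gene differed from its neighbour in this order by more than the smaller of their SDs. The mean of Socs4 rested on one library, since washout 1 held 60.9% of its summed CPM. For Socs5, the most even by this measure, the highest library held 29.8%. The order also depends on the length used. By the study's methods reads were assigned with the gene as the feature, which may or may not take in introns. Per kb of gene span, introns included, Socs2 alone kept its place, Socs1 came first and Socs6, whose exons lie within 262 kb, came last.

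**Figure D3:**
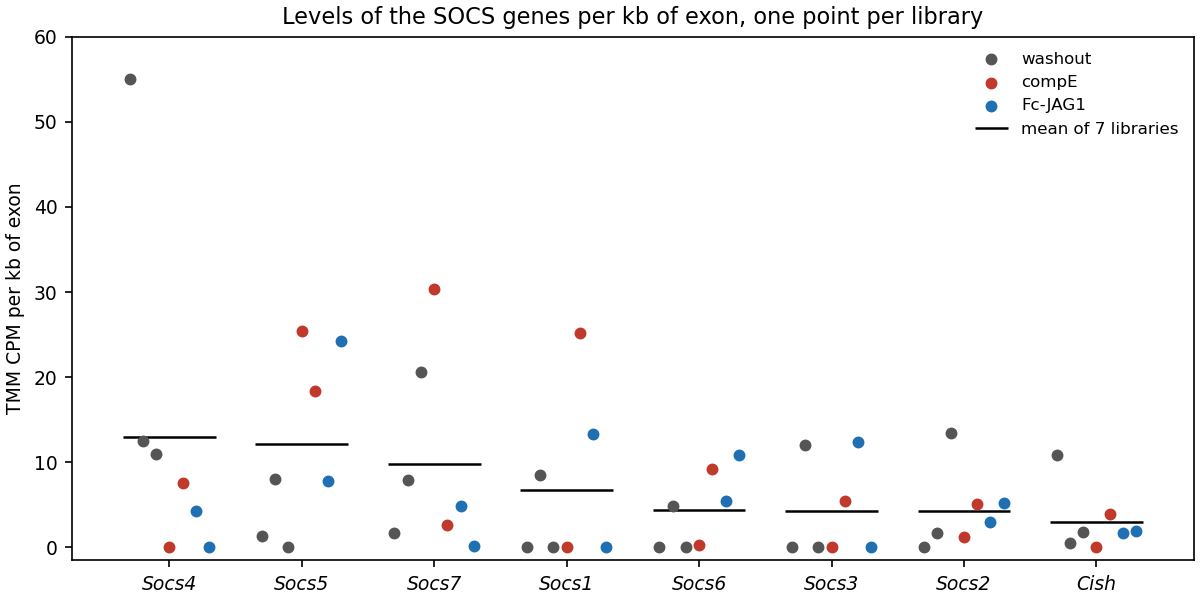
Level of each SOCS gene in CPM per kb of exon, one point per library coloured by group (washout grey, compE red, Fc-JAG1 blue), with the mean of the 7 libraries as a line, ordered by that mean. Points of each gene spread from 0 or near 0 to more than its mean, and washout 1 stands alone for Socs4 at 55.1 CPM per kb.

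Cish and Socs2 are the members most closely tied to STAT5, whose activation by erythropoietin, thrombopoietin and interleukins induces both. Cish (ENSMUSG00000032578, chromosome 9, 107296026 to 107302784 of GRCm38, plus strand) stood at 70.0, 3.41 and 11.9 CPM in washout 1, 2 and 3, at 0 and 25.1 CPM in compE 1 and 2, and at 10.98 and 12.3 CPM in Fc-JAG1 1 and 3. The washout values enclosed both Fc-JAG1 values, and compE 1, at 0, lay below all other libraries. The Fc-JAG1 pair, 11.7 ± 0.952 CPM (SD, n = 2), was the tightest of any member and group, while the washout mean was 28.4 ± 36.2 CPM (SD, n = 3). The 2 annotated genes on the opposite strand that overlap Cish had 0 or 1 counts in every library.

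Socs2 (ENSMUSG00000020027, chromosome 10, 95385362 to 95417180, minus strand), which also restrains growth hormone signaling, stood at 0.174, 16.5 and 129 CPM in washout 1, 2 and 3. It stood at 11.1 and 49.1 CPM in compE 1 and 2 and at 28.7 and 50.02 CPM in Fc-JAG1 1 and 3. The washout libraries were both the lowest and the highest, so that the groups overlapped fully. In raw counts, washout 1 had 3 and washout 3 had 3607.

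Socs1 and Socs3 carry a kinase inhibitory region that blocks JAKs directly, and they are induced by interferons and by gp130 cytokines and G-CSF, respectively. Socs1 (ENSMUSG00000038037, chromosome 16, 10782240 to 10785536, minus strand) had 893 counts in washout 2, 2837 in compE 2 and 1411 in Fc-JAG1 1, and 0 in the other 4 libraries. In CPM the 3 libraries that held it stood at 24.7, 73.2 and 38.7. Socs3 (ENSMUSG00000053113, chromosome 11, 117966079 to 117970047, minus strand) had 1257, 610 and 1305 counts in the same 3 libraries, and 0, 0, 7 and 2 in washout 1, washout 3, compE 1 and Fc-JAG1 3. Each group thus held one library rich in both genes and at least one with fewer than 10 counts. Both genes failed the filter of at least 10 counts in at least 2 libraries of one condition and entered no main test. The libraries that held them are the 3 gene-rich ones, and this was common: of 1731 genes with at least 10 counts in exactly 3 libraries, 661 (38.2%) had them in these 3. The part that the number of genes in a library has in these zeros was not tested.

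Socs4 and Socs5 are close relatives with long N-terminal regions, both known to promote degradation of the EGF receptor, and Socs5 also acts on interleukin 4 signaling. Socs4 (ENSMUSG00000048379, chromosome 14, 47276931 to 47296102, plus strand) stood at 379, 85.9 and 75.9 CPM in washout 1, 2 and 3. With compE it stood at 0 and 51.8 CPM, and with Fc-JAG1 at 29.8 and 0.127 CPM. All 3 washout libraries were above all 4 others. Of all tested genes, 6.85% were lower with Fc-JAG1 than in the washout without overlap, and 6.79% were lower with compE. The share of genes lower with both was not counted. The means were 180 ± 172 CPM in the washout (SD, n = 3), 25.9 ± 36.6 with compE and 15.0 ± 20.97 with Fc-JAG1 (SD, n = 2 each). It passed the filter through the washout alone, since compE 1 and Fc-JAG1 3 had 0 and 3 counts.

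Socs5 (ENSMUSG00000037104, chromosome 17, 87107679 to 87137839, plus strand) ran the other way. It stood at 8.65, 51.8 and 0.0713 CPM in washout 1, 2 and 3, at 163 and 118 CPM in compE 1 and 2, and at 49.8 and 156 CPM in Fc-JAG1 1 and 3. Both compE libraries lay above all washout libraries. Fc-JAG1 1 lay just under washout 2, so that the Fc-JAG1 and washout groups overlapped. The means were 20.2 ± 27.7 CPM in the washout (SD, n = 3), 141 ± 31.7 with compE and 103 ± 74.7 with Fc-JAG1 (SD, n = 2 each).

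Socs6 and Socs7 form the remaining pair by sequence. Socs6 binds activated KIT, the receptor by which these cells were sorted, and Socs7 binds adaptors such as NCK. Socs6 (ENSMUSG00000056153, chromosome 18, 88665224 to 88927481, minus strand) stood at 0.290, 54.7 and 0 CPM in washout 1, 2 and 3, at 3.48 and 105 CPM in compE 1 and 2, and at 62.4 and 123 CPM in Fc-JAG1 1 and 3. Both Fc-JAG1 libraries lay above all washout libraries, with washout 2 and Fc-JAG1 1 close together. The means were 18.3 ± 31.5 CPM in the washout (SD, n = 3), 54.0 ± 71.4 with compE and 92.6 ± 42.8 with Fc-JAG1 (SD, n = 2 each). It passed the filter through compE and Fc-JAG1, with only 1 washout library at 10 counts or more. The 3 pseudogenes annotated within its span had 0 counts in every library.

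Socs7 (ENSMUSG00000038485, chromosome 11, 97362551 to 97398542, plus strand) was the one member with at least 10 counts in all 7 libraries. It stood at 12.2, 57.5 and 150 CPM in washout 1, 2 and 3, at 221 and 19.1 CPM in compE 1 and 2, and at 35.4 and 1.61 CPM in Fc-JAG1 1 and 3. The highest and the lowest compE value enclosed all washout values but the lowest, and Fc-JAG1 3 lay below every other library. The genes whose log2 CPM followed that of Socs7 most closely over the 7 libraries were Sbds (Pearson r = 0.987), a ribosome maturation factor, Vmp1 (0.981), a membrane protein of autophagy, and Cbx1 (0.977), a heterochromatin protein, out of 10310 genes. The points are whole libraries that share their depth and capture, so these values are a description. The other tested SOCS genes had r from −0.59 (Cish) to 0.13 (Socs2) with Socs7.

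Within the 3 gene-rich libraries, one of each group, all 8 genes were measured well above 10 counts and their levels lay closer together. The highest of the 3 values exceeded the lowest by 1.91-fold for Socs6 and 2.28-fold for Socs3, and by 7.35-fold for Cish, with the other 5 genes between 2.37-fold and 3.00-fold. Over the 8581 tested genes with at least 10 counts in all 3, the median of this ratio was 2.18-fold, with quartiles of 1.58 and 3.69. So 7 of the 8 SOCS genes lay within the quartiles of all genes, and Cish lay above them. CompE 2 was the highest of the 3 for Cish, Socs1, Socs2, Socs5 and Socs6, washout 2 for Socs4 and Socs7, and Fc-JAG1 1 for Socs3. Socs6, which had 5 and 0 counts in washout 1 and 3, stood at 54.7, 105 and 62.4 CPM in washout 2, compE 2 and Fc-JAG1 1. With 1 library per group in this subset there is no test.

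Fc-JAG1 was then compared with the washout, to ask how the ligand given in trans alters the SOCS genes once compE is removed. Both Fc-JAG1 libraries lay above every washout library for Socs6 and below every one for Socs4, and the other 6 genes overlapped. Of all tested genes, 10.5% were higher and 6.85% lower without overlap. With edgeR's quasi-likelihood test, with sample number as a block, 0 of the 6 tested members passed an adjusted p of 0.05 (0% of all genes) and 1 had an unadjusted p under 0.05 (5.1% of all genes). That member was Socs6, with a log2 fold change of 7.11 (SE 3.29, unadjusted p = 0.0407, adjusted p = 0.828). Its log2 differences between Fc-JAG1 and washout of the same sample were 7.44 for sample 1 and 10.82 for sample 3, with medians over all genes of 1.495 and 0. Socs4 had a log2 fold change of −3.90 (SE 2.75, adjusted p = 0.871), from −3.67 in sample 1 and −8.60 in sample 3. Socs5 had 4.17 (SE 3.44, adjusted p = 0.924), from 2.52 in sample 1 and 10.12 in sample 3. The log2 fold changes of Socs2, Cish and Socs7 were 1.379, −0.96 and −3.47, each with an SE between 2.56 and 3.50. Over the 6 members 3 values were above and 3 below 0, with a median of 0.21, against a median of 0.44 over all tested genes.

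The Wald test of DESeq2, used by the study itself and run here with condition and sample number as terms, called 2 of the 6 members higher with Fc-JAG1 and 0 lower, where it called 15.7% of all tested genes higher and 4.74% lower (20.4% in all). The members were Socs6, with a log2 fold change of 9.85 (SE 2.20, adjusted p = 0.000238), and Socs5, with 6.001 (SE 2.12, adjusted p = 0.0272). Both calls depended on washout 3 and Fc-JAG1 3. Without the one or the other, Socs6 had DESeq2 log2 fold changes of 6.23 and 6.30 (adjusted p = 0.101 and 0.118) and Socs5 had 0.90 and 0.97 (adjusted p = 0.865 and 0.861). Without washout 2 or compE 2, Socs5 missed the threshold (adjusted p = 0.0615 and 0.0618) with log2 fold changes of 6.31 and 6.30. With no replicate block DESeq2 called 0 of 6 members (3.76% of all genes), Socs6 having a log2 fold change of 2.57 and no adjusted p, and Socs5 2.47 with an adjusted p of 0.798. Washout 2, the washout library in which both genes were high, shares no sample with an Fc-JAG1 library, so under the block it enters this comparison through compE 2 alone. Socs1 and Socs3, tested by edgeR with no filter, had unadjusted p-values of 0.0768 and 0.0897 and adjusted p-values of 0.984 each.

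**Figure D4:**
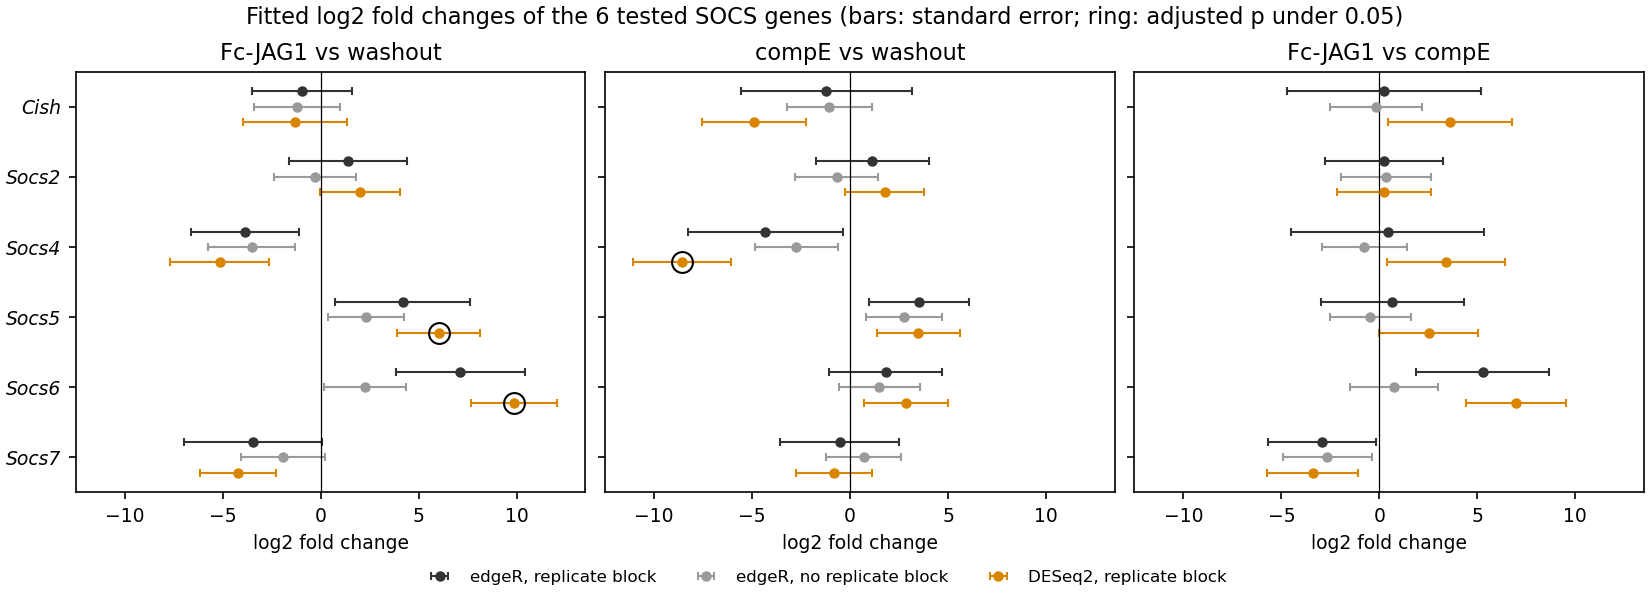
Log2 fold changes of the 6 tested SOCS genes in the 3 comparisons, as points with bars of 1 standard error, for edgeR with the sample number as a block (black), edgeR without it (grey) and DESeq2 with it (orange); rings mark an adjusted p under 0.05. Rings appear for DESeq2 alone, at Socs5 and Socs6 with Fc-JAG1 and at Socs4 with compE, and the grey points lie nearer 0 for Socs6.

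Continued compE was compared with the washout, to ask what a lasting block of Notch cleavage does to these genes. Socs5 was higher in both compE libraries than in any washout library and Socs4 lower, and the other 6 overlapped. Of all tested genes, 10.9% were higher and 6.79% lower without overlap. By edgeR 0 of 6 members passed the test, with 0% of all genes passing, and 0 had an unadjusted p under 0.05 (2.63% of all genes). The log2 fold change of Socs5 was 3.51 (SE 2.56, adjusted p = 1), from differences of 4.23 in sample 1 and 1.19 in sample 2. That of Socs4 was −4.32 (SE 3.95, adjusted p = 1), from −12.44 in sample 1, where compE 1 had 0 counts, and −0.73 in sample 2. Cish had −1.21 (SE 4.37), from −10.01 in sample 1 and 2.85 in sample 2, so that its samples moved in opposite ways. Socs7 also went opposite ways, by 4.17 in sample 1 and −1.58 in sample 2. Socs2 was higher with compE in both samples, by 5.53 and 1.57, although its washout 3 library was the highest of all. DESeq2 called 1 of 6 members, Socs4, lower with compE (log2 fold change −8.59, SE 2.52, adjusted p = 0.0137), and 0 higher, where it called 3.67% of all tested genes lower and 5.66% higher (9.33% in all).

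That call of Socs4 rested on compE 1: without it the DESeq2 log2 fold change was −0.78 with an adjusted p of 1. Without washout 1, washout 3, Fc-JAG1 1 or Fc-JAG1 3 it missed the threshold (adjusted p = 0.307, 0.0676, 0.111 and 0.0676) with log2 fold changes of −7.19, −7.94, −8.00 and −7.93. Without washout 2 or compE 2 it was −17.64 and −17.61 (adjusted p = 0.00017 and 0.000141). With no replicate block it was −3.49 (adjusted p = 0.627), when DESeq2 called 0 of 6 members and 3.15% of all genes. The summed level of the macrophage markers was also lower with compE, 103 to 356 CPM against 421 to 522 CPM in the washout. Of these markers only Ctss was lower in both compE libraries than in every washout library. It stood at 277, 76.0 and 92.6 CPM in washout 1, 2 and 3 and at 0.119 and 18.0 CPM in compE 1 and 2. Csf1r had 1018 to 2987 counts in the washout and 1471 and 3627 with compE, and the other markers overlapped too. The part of these markers in the result was not tested.

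Fc-JAG1 and compE were last compared with each other, which sets ligand against blocked cleavage with sample 1 as the one sample in common. Both comparisons above share the washout libraries, so this last comparison is not independent of them. All 6 tested members, and Socs1 and Socs3, overlapped between the groups, whereas 15% of all tested genes were higher and 15.4% lower without overlap. By edgeR 0 of 6 passed the test (0% of all genes) and 0 had an unadjusted p under 0.05 (2.83% of all genes). By DESeq2 0 of 6 passed, where 11.4% of all genes did (9.18% higher and 2.21% lower), and with no replicate block 0 of 6 passed beside 1.84% of all genes. Socs6 had the most positive log2 fold change, 5.28 by edgeR (SE 3.39, adjusted p = 1) and 6.99 by DESeq2 (SE 2.57, adjusted p = 0.0506). Its levels in compE 1 and 2, 3.48 and 105 CPM, lay on either side of Fc-JAG1 1 at 62.4 CPM and below Fc-JAG1 3 at 123 CPM. Socs7 had the one negative value, −2.94 (SE 2.75, adjusted p = 1). In sample 1, Socs4 and Cish were higher with Fc-JAG1 than with compE by 8.77 and 7.34 on the log2 scale, since compE 1 had 0 counts of both. Yet their fitted values were 0.42 and 0.25, with SEs of 4.93 and 4.95.

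Around the SOCS genes, 95 genes of the pathway were followed in 6 lists, of which 77 passed the filter. By edgeR 0 passed the adjusted threshold in any comparison, with 2, 1 and 2 at an unadjusted p under 0.05 for Fc-JAG1 and compE against the washout and Fc-JAG1 against compE. By DESeq2 13 were higher and 1 lower with Fc-JAG1 than in the washout, 2 were higher and 6 lower with compE than in the washout, and 9 were higher and 0 lower with Fc-JAG1 than with compE. The called genes made up 18.2%, 10.4% and 11.7% of the 77, near the 20.4%, 9.33% and 11.4% of all tested genes, so that these counts are no result about the pathway. Of 22 tested cytokine receptors 4, 3 and 2 were called in these comparisons, and of 8 JAK kinases and STAT factors 1, 0 and 2. Among the SOCS box partners that build the E3 ligase, 1, 0 and 2 of 9 were called, and among other SOCS box proteins 1, 1 and 2 of 9. Of 12 other JAK-STAT inhibitors 2, 2 and 0 were called, and of 17 STAT target genes 5, 2 and 1. The median edgeR log2 fold change of the 77 genes was 0.86 with Fc-JAG1 and −0.37 with compE against the washout, beside 0.44 and −0.10 for all tested genes.

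Of the pathway genes with the smallest p-values, some that bear on a SOCS gene are described here, and others are not. Ifngr1, a chain of the interferon γ receptor whose signal Socs1 restrains, had 23, 3102 and 4 counts in washout 1, 2 and 3, 0 in compE 1, 1449 in compE 2, 3976 in Fc-JAG1 1 and 6145 in Fc-JAG1 3. Washout 2 was far above the rest of its group, as for Socs6. Its log2 fold change with Fc-JAG1 against the washout was 8.40 by edgeR (adjusted p = 0.828) and 8.44 by DESeq2 (adjusted p = 0.00108). Rnf7, a RING subunit that works with cullin 5 in SOCS box ligases, had 0, 3092 and 7 counts in the washout, 1 and 1699 with compE, and 1176 and 3069 with Fc-JAG1 (DESeq2 adjusted p = 6.8e-05 against the washout). Asb8, another SOCS box protein, had 0, 376 and 0 counts in the washout, 2 and 2832 with compE, and 3084 and 4718 with Fc-JAG1 (DESeq2 adjusted p = 1.02e-06 against the washout). Rnf7 and Asb8 passed the filter through Fc-JAG1 alone, the group in which they were called higher. By edgeR the adjusted p of each against the washout was 0.828. Their lists were mixed in this comparison. Of 9 E3 ligase partners, 5 edgeR log2 fold changes were above and 4 below 0, and of 9 other SOCS box proteins 6 and 3. The partner Ube2f had −2.57, and the SOCS box gene Spsb3 had −5.92 by edgeR and 3.28 by DESeq2. Neither was called. Osm, a cytokine gene induced by STAT5 whose receptor uses the Socs3-bound chain gp130, had 1, 1265 and 6707 counts in the washout and 0 in all 4 other libraries, so that it passed the filter through the washout alone. It was called lower by DESeq2 with Fc-JAG1 (adjusted p = 0.00191) and with compE (adjusted p = 0.0134), and by edgeR its adjusted p was 0.842 and 1. Of the STAT genes upstream of Cish and Socs2, Stat5b had 6, 1870 and 3371 counts in the washout, 7 and 3614 with compE, and 1609 and 3302 with Fc-JAG1. Stat5a had 2, 3456 and 0 counts in the washout, 1505 and 4438 with compE, and 1491 and 0 with Fc-JAG1. Neither was called by either tool. In washout 3, the library with the most Socs2, Stat5a was at 0 and Stat5b at 3371 counts.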

How the data were processed

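Nascent RNA was captured through EU, pre-amplified and sequenced in 7 libraries. By the study's methods and the labels, the authors used cutadapt 4.2 for trimming, STAR 2.7.8 for alignment to GRCm38 and featureCounts of Subread 2.0.1 to count uniquely mapped reads per gene. The deposited raw counts are whole numbers, not normalized, and the methods name the gene as the counted feature, so that introns may be included. The deposited filtered counts hold the same genes as the filter below. The log2 values that the authors made with DESeq2 1.38.3 and the columns of their own comparisons were not used here. Gene identifiers were placed with GENCODE M21 (55227 of 55487).

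Genes reaching 10 counts in 2 or more libraries of a condition, 10311 in all, were fitted by edgeR 4.0.16 under R 4.3.3 (quasi-likelihood, bias-adjusted deviances, TMM factors, terms for condition and sample number), and p-values were adjusted by Benjamini and Hochberg over all of them (threshold 0.05). The common dispersion was 2.42. CPM are counts scaled by the TMM library size. Log2 CPM used a prior count of 2. Deviations of same-numbered libraries from their group means correlated at −0.0854 to 0.0915 (5 pairs). The block follows the study's methods, and whether the numbers pair the libraries was not settled by this check. By the study's methods the numbers stand for 3 biological samples. Alternatives were DESeq2 1.42.0, fits with no replicate block, other scalings and filters, leaving out each library, and, added after the data were seen, edgeR's earlier quasi-likelihood fit. The members and the gene lists were chosen with earlier results of these data known. All 8 members are named. Of other genes, the 2 with the smallest edgeR p of each list and comparison and the 3 most like Socs7 qualified. Some of those that bear on a SOCS gene are described. Figures were drawn with matplotlib 3.10.9.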

Additional observations from a re-analysis of the deposited data

How the results depend on the processing

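By edgeR, 0 SOCS genes and 0 pathway genes passed the threshold in any comparison under every alternative run, leaving out any library included (0 to 0). With DESeq2 the numbers were 2, 1 and 0 SOCS genes and 14, 8 and 9 pathway genes for Fc-JAG1 and compE against the washout and Fc-JAG1 against compE. When DESeq2 left out one library, they ran from 0 to 3, 0 to 2 and 0 to 1 for the SOCS genes and from 8 to 26, 0 to 16 and 0 to 14 for the pathway genes. Leaving out washout 1 to 3, then compE 1 and 2, then both Fc-JAG1 libraries, one at a time and in this order, the pathway genes called were 17, 13, 8, 13, 13, 26 and 8 for Fc-JAG1 against the washout, 2, 16, 4, 0, 16, 2 and 4 for compE against the washout, and 12, 11, 7, 0, 11, 14 and 7 for Fc-JAG1 against compE. The share of all tested genes called is not given for the fits with a library left out. These counts are therefore no result about the SOCS genes or the pathway. Some members were called by DESeq2 only with a library left out. Against the washout, Socs4 was called lower with Fc-JAG1 without washout 2 (log2 fold change −6.80, adjusted p = 0.0334). Without compE 1 or compE 2 its log2 fold change there was −6.74 and −6.80. Socs7 was called lower in that comparison without washout 1 (−5.85, adjusted p = 0.0359). Cish was called lower with compE without washout 2 (−12.96), with 0 counts in compE 1. In that fit Cish was also called higher with Fc-JAG1 than with compE (11.25, adjusted p = 0.0238). Socs6 had a log2 fold change of 12.15 with Fc-JAG1 against compE without Fc-JAG1 1. DESeq2 with no replicate block called 0 SOCS genes in any comparison and 1 and 3 pathway genes against the washout. Of 270 fold changes of single SOCS genes under an alternative, 34 changed sign, none of them past the threshold in either fit. The DESeq2 fits that left out one library are not among the 270. Signs changed there too, as for Cish with Fc-JAG1 against the washout, at 4.15 without washout 1. With no replicate block, edgeR and DESeq2 gave log2 fold changes for Socs2 of −0.32 and −0.39 with Fc-JAG1 and −0.68 and −0.98 with compE against the washout, and for Socs7 of 0.70 and 0.79 with compE. For Fc-JAG1 against compE they gave −0.77 and −0.70 for Socs4 and −0.46 and −0.41 for Socs5, and edgeR gave −0.17 for Cish. The size factors of DESeq2 in edgeR gave −0.061 for Socs2 in that comparison. When edgeR left out one library, signs also changed for Socs2 (−1.36 to 4.19) and Cish (−1.72 to 2.11) with Fc-JAG1 against the washout, and for Socs7 (−2.19 to 1.44) and Cish (−13.44 to 2.86) with compE against the washout. For Fc-JAG1 against compE they changed for Socs2 (−3.75 to 1.79), Socs4 (−5.05 to 12.19), Socs5 (−1.17 to 8.41) and Cish (−4.16 to 12.08). A group left with 1 library by this was assumed to vary like the others. The cause of these changes was not tested. Of the 8 places in the order of levels, 1 was kept per kb of gene span and 3 with no division by length. Of the 15 values under 10 counts, 9 were 0.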
